A study of Mus musculus with 10 samples.

Results

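Distal regions of open chromatin that every ATAC-seq peak list of the embryonic epicardial lineage shared were examined. ATAC-seq maps open chromatin by letting a transposase cut and tag accessible DNA. The regions were selected on the peak calls themselves: the intervals of all 9 lists on chromosomes 1 to 19 were pooled and overlapping intervals were merged. A merged region was kept when each of the 9 lists overlapped it by 1 bp or more and when it lay more than 1 kb from any annotated transcription start site (TSS) of the mouse genome build mm10. Of 154886 merged regions, 126783 were distal by this rule, and 26671 of these, or 21.04%, were called in all 9 lists. Below they are called the shared distal regions.

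The libraries came from hearts of Rosa26tdTomato;Wt1CreERT2/+ embryos, on a C57BL/6J background per the labels, whose mothers received tamoxifen at E9.5. All groups carry these alleles and this treatment, so cells that expressed Wt1 around the time of dosing, and their descendants, are labelled with tdTomato. Epicardial cells, sorted as CD31-tdTomato+PDPN+, gave 3 libraries at E11.5 (6 pooled hearts per sample) and 3 at E17.5 (4 pooled hearts per sample). Epicardium-derived cells (EPDCs), sorted as CD31-tdTomato+PDPN-, gave 1 library at E12.5 and 2 at E13.5. One of the E13.5 samples was sequenced as a pair of technical replicates, for which 1 common list was deposited, and E13.5 samples pooled 4 to 13 hearts per the labels, a wider range than the methods give. Each library is a pool of littermate hearts, and the label marks a Wt1 lineage rather than the epicardium alone, so the PDPN gate alone separates both cell types. The EPDC comparison with E11.5 therefore differs in gate and in stage at once, and these cannot be told apart.

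Distal accessible regions are the places where enhancers, insulators and other regulatory elements are found, and transcription factors bind there to short sequence motifs. Regions open in many cell types and stages include insulator sites bound by CTCF, which organises chromatin loops together with cohesin, and elements near broadly expressed genes. The epicardium is the mesothelial layer of the heart. It gives rise to mesenchymal EPDCs by an epithelial-to-mesenchymal transition, in which TGF-beta signalling and the Hippo effectors of the TEAD family are known to act.

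Windows of sequence around the median summit of 6 shared distal regions are shown, reaching 60 bp to each side. Matches within 100 bp of the summit can lie outside them, as do a TEAD match of the Ldb2 region and an AP-1 match of the Cog6 region. Whether the values below depend on these sequences was not tested. They are, in order, the region of highest rank over all libraries, the regions with the greatest rise and fall between stages, the regions with the greatest rise and fall in EPDCs, and the highest ranked region with a CTCF motif. The last of these was chosen after its values were seen. Each is given 5′ to 3′ on the plus strand of GRCm38, the assembly of mm10, with motif matches in capitals.
Zfp869 region, chr8:69716967-69717087, an E-box and an AP-1 match: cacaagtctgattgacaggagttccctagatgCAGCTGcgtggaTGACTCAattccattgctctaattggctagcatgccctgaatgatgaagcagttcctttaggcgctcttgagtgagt
Adamts2 region, chr11:50669736-50669856, a GATA match on the minus strand and an AP-1 match: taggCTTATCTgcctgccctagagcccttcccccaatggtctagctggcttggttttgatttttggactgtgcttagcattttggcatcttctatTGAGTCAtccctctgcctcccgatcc
Ldb2 region, chr5:44601444-44601564, a RUNX match on the minus strand: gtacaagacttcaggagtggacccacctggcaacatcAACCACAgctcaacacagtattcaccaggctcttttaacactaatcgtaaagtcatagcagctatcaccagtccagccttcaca
Cog6 region, chr3:52897822-52897942, an E-box match: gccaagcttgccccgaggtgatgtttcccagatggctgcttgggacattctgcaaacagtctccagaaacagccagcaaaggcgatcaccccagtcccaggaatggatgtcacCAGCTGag
Fam49a region, chr12:12518662-12518782, a GATA match on the minus strand: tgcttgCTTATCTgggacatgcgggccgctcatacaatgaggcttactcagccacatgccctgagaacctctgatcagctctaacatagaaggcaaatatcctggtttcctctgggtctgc
Zfp286 region, chr11:62756907-62757027, a CTCF match: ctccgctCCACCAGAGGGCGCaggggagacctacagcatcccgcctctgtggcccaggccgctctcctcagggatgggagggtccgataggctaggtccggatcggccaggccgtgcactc

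The lists held 75234 to 109307 intervals on chromosomes 1 to 19, X and Y. Their most frequent background was 2.07 to 4.26 fragments per position in 8 libraries and 10.9 in E13.5 EPDC sample 2, which is therefore the deepest. Across the shared distal regions, replicates of a group had rank correlations (Spearman's rho over regions) of 0.949 to 0.957 at E11.5 and 0.946 to 0.966 at E17.5. In EPDCs the E13.5 pair had 0.969, and the E12.5 library had 0.892 and 0.884 with them. The E12.5 EPDC library also stood nearer to E11.5 epicardium (0.692 to 0.703) than the E13.5 libraries did (0.514 to 0.529). Promoters of the labelled cell types were checked as peaks within 500 bp of a TSS, ranked by percentile among the peaks of the library. The promoter of Upk3b, a mesothelial uroplakin gene, ranked at 96.3 to 98.9 in epicardial libraries and 19.7 to 69.9 in EPDCs. It was the only one of 7 epicardial promoters with so low a rank in EPDCs: all 7 were called in every library, and in EPDCs Wt1 ranked at 92.2 to 96.8, Tbx18 at 94.4 to 97.6, Tcf21 at 88.2 to 92.1, Aldh1a2 at 83.2 to 89.9, Bnc1 at 80.6 to 85.7 and Pdpn, the gene of the sorted protein, at 83.7 to 85.0. That of Postn, a matrix gene of cardiac mesenchyme, was uncalled at E11.5, ranked at 39.2 to 45.2 at E17.5 and at 67.9 to 79.0 in EPDCs. The other 4 mesenchyme promoters were called in every library. Col3a1 ranked at 37.6 to 66.5 at E11.5, 70.2 to 71.5 at E17.5 and 69.8 to 85.3 in EPDCs. In the same order, Pdgfra ranked at 58.6 to 65.7, 66.7 to 73.7 and 51.4 to 60.6. Pdgfrb ranked at 81.8 to 87.6, 85.0 to 86.6 and 82.6 to 84.2, and Col1a1 at 88.8 to 93.4, 87.0 to 89.3 and 86.8 to 91.2. Of the endothelial promoters, those of Pecam1, Cdh5 and Tie1 were called in none of the 9 libraries, and those of Kdr and Cldn5 were called in all. Of the blood promoters, those of Ptprc, Spi1, Hbb-bt and Gata1 were called in none, and that of Lyz2 in 6, at up to 16.4 in epicardial libraries and 27.8 to 60.7 in EPDCs. Of the cardiomyocyte promoters, Myh6 was called in none, Tnnt2 and Actn2 in all, Myl2 in 4 and Ttn in 1. Tnnt2 ranked at 83.1 to 87.4 at E11.5, 55.0 to 62.0 at E17.5 and 74.6 to 80.9 in EPDCs, Actn2 at 89.9 to 93.1, 74.6 to 82.0 and 88.0 to 89.4, and Myl2 was called in all 3 E11.5 libraries, no E17.5 library and 1 EPDC library. The part of these markers in the comparisons below was not tested.

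The shared distal regions were the most numerous class of distal region by number of libraries. The next were the 22899 regions called in 1 library, while 6496 were called in 7 and 6678 in 8. Among regions within 1 kb of a TSS, 17342, or 61.7%, were called in all 9. The shared distal regions covered 26.5 Mb, with a median width of 921 bp (quartiles 736 and 1170 bp) against 542 bp for all distal regions, and the widest reached 4132 bp. Since a merged region can only grow as more lists add to it, width moves with the rule that chose the regions. They held 33.7% to 53.8% of the distal intervals of a list, lowest in the E11.5 replicate 2 and E13.5 EPDC sample 2 lists and highest in the short list of E17.5 replicate 1.

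**Figure D1:**
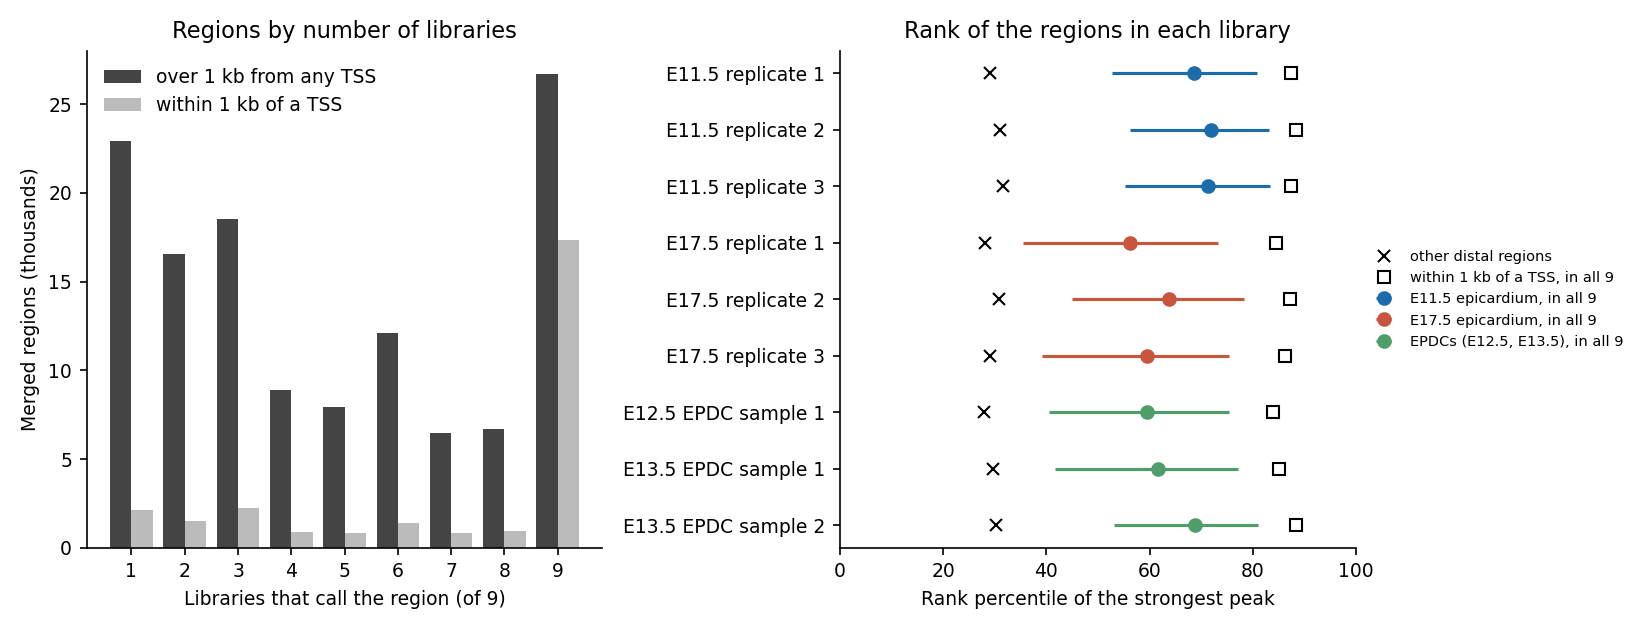
Left, merged regions (in units of 1000) by the number of libraries that call them, over 1 kb from any TSS in dark bars and within 1 kb in light bars. Right, the rank percentile of the strongest peak in each library, with points at the median and lines at the quartiles of the shared distal regions, crosses at the median of other distal regions and squares at that of TSS-proximal regions called in all 9. Shared distal regions sit at medians of 56.2 to 71.9, between the crosses (27.8 to 31.5) and the squares (84.0 to 88.4). Peak strength decides the calls, so the place above the crosses restates the selection.

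Being called in all libraries did not place these regions among the strongest peaks. Their median rank was 68.7, 71.9 and 71.4 in the E11.5 libraries, 56.2, 63.8 and 59.5 in the E17.5 libraries and 59.6, 61.6 and 68.8 in the EPDC libraries. Only 4.14% to 11.2% of them lay above percentile 90 of a list, and 0.52% to 4.83% lay below percentile 10. At the strongest summit their median stood 8.12 to 9.51 times above the local background, with a median of 38 to 176 fragments. The rank depends on the length of the list and on the peak strength that decides the calls, and no comparison is drawn from it.

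Near the threshold, the shared distal regions had a median lowest −log10 q over the 9 libraries of 14.9, and the 6678 regions that missed 1 list had 5.41 over the 8 libraries that called them. The selection on peak calls sets this difference. The lowest value was under 3 in 1084 of the shared distal regions, or 4.06%, and in 1114 of those called by 8, or 16.7%. The list that lacked the call was that of E17.5 replicate 1 in 1807 cases, E12.5 EPDC sample 1 in 1583 and E13.5 EPDC sample 1 in 1581. It was that of the deepest library, E13.5 EPDC sample 2, in 78. The shared distal region nearest to a TSS lay 1001 bp away.

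The positions of shared distal regions differed little from those of distal regions as a whole. Of their summits, 50.6% lay in introns, 44.2% between genes and 5.29% in exons, against 52.4%, 42.9% and 4.71% of all distal regions. The median distance to a protein-coding TSS was 22.4 kb, against 26.5 kb, and 15.8% lay over 100 kb away, against 20.6%. The bases within 100 bp of the summit held 50.8% G and C at the median, against 48.8% in all distal regions and 63.7% in TSS-proximal regions called in all 9. The ratio of observed to expected CpG dinucleotides was 0.276, against 0.221 and 0.747. Repeats made up 50% or more of the window in 1.61% of shared distal regions and 3.76% of all distal regions. The density was highest on chromosome 11, with 15.0 regions per Mb, and lowest on chromosome 14, with 8.54. As a share of the distal regions of a chromosome they differed little. The share was 22.7% on chromosome 11, the highest, 20.2% on chromosome 14 and 19.7% on chromosome 6, the lowest.

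Sequence patterns of 13 transcription factor families were searched on both strands within 100 bp of the median summit. CTCF and MEF2 were searched by their consensus patterns, and the other families by short exact patterns that are spelled out with their shares below. No pattern contains another, although WT1/EGR and SP/KLF matches can share bases. The pattern of CTCF, the insulator protein, was found in 967 shared distal regions, or 3.63%, against 2.18% of all distal regions, 1.22% of TSS-proximal regions called in all 9, and 0.08% of windows 1 kb downstream of the same summits. The CTCF share was 1.02% of distal regions called in 1 library, 1.67% of those called in 6, 4.13% of those called in 7 and 5.15% of those called in 8, above the share in those called in 9. The pattern TGANTCA of AP-1, the dimer of FOS and JUN proteins, was in 19.7% (17.98% of all distal regions), and the E-box CAGCTG, bound by basic helix-loop-helix factors, was in 22.8% (20.1%). The TEAD pattern, ACATTCC, to which the Hippo effectors bind, was in 9.52% (8.53%). The GATA pattern, AGATAAG, named for the factors that bind it, was in 6.95% (6.88%).

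SP/KLF, the GC-rich box of many promoters with the pattern GGGCGGG, was in 6.02% of shared distal regions against 3.29% of all distal regions. That share was 34.98% in TSS-proximal regions called in all 9, and the GC content of the window rises in the same order. The WT1/EGR pattern, GCGTGGG, was in 2.73% of shared distal regions (1.74% of all distal regions). Rarer were ETS with the pattern CCGGAAGT, in 0.49% (0.37%), and NRF1 with CGCATGCG, in 0.23% (0.14%). The NFI palindrome, TTGGC and GCCAA separated by 5 bases, was in 0.13% (0.12%). Lower shares than in all distal regions were found for the T-box pattern AGGTGTGA, in 0.56% against 0.80%, and for the RUNX pattern TGTGGTT, in 3.93% against 4.22%. MEF2 was in 2.52%, against 2.67%. In 10823 shared distal regions none of the 13 patterns was found.

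Matches of most families were centred on the summit. Per bp, CTCF matches within 20 bp of the summit were 75.7 times as dense as those 300 to 400 bp away, and 72.5% of the CTCF matches within 400 bp lay within 50 bp. The same ratio was 5.98 for AP-1, 4.78 for TEAD, 3.31 for SP/KLF, 3.08 for GATA and 2.66 for the E-box. It was 1.01 for RUNX, 0.76 for MEF2 and 0.55 for the T-box, whose matches were spread evenly or were sparser at the summit.

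**Figure D2:**
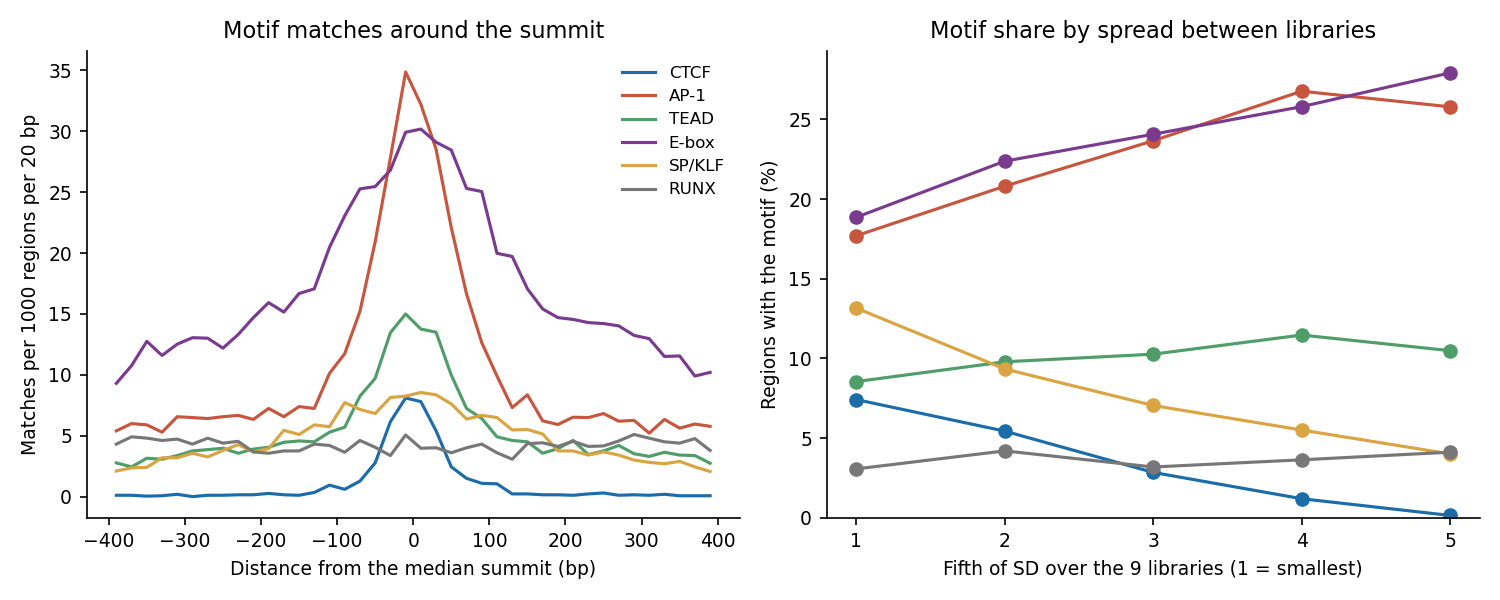
Left, motif matches per 1000 shared distal regions in bins of 20 bp by distance from the median summit (bp). Right, the percentage of regions with each motif in quintiles of the SD of normalized log2 fragments over the 9 libraries, for shared distal regions at or above their median level. CTCF matches peak at the summit and their share falls from 7.42% in the least variable quintile to 0.15% in the most variable, while the E-box share rises from 18.9% to 27.9%.

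Regions open in every library still differed in height. The measure was the number of whole fragments over the strongest summit, on the log2 scale and quantile normalized between libraries, so that a value is a level relative to the other regions of its library. The median SD of a shared distal region over the 9 libraries was 0.456 (log2), against 0.229 for the TSS-proximal regions called in all 9. The median SD between replicates was 0.173 at E11.5, 0.157 at E17.5 and 0.209 in EPDCs, while the SD of the 3 group means had a median of 0.466. The group means spanned over 1 on the log2 scale in 11608 regions, or 43.5%, and over 2 in 2168, or 8.13%. They spanned under 0.5 in 23.6%. The highest mean was that of E11.5 epicardium in 31.0%, of E17.5 epicardium in 34.1% and of EPDCs in 34.9%. Since a region that drops below the peak threshold in any library leaves the set, these differences are bounded by the rule. In bulk libraries, fewer cells with an open region and less opening per cell cannot be told apart.

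Motifs differed along this spread. Among the 13336 shared distal regions at or above the median level, the quintile with the smallest SD (median 0.190) held CTCF in 7.42% and SP/KLF in 13.2%. The quintile with the largest SD (median 0.886) held them in 0.15% and 4.01%. AP-1 went from 17.7% to 25.8%, the E-box from 18.9% to 27.9% and GATA from 4.27% to 8.58%. The quintiles also differed in GC content (54.2% to 51.2%), in median rank (80.2 to 70.0) and in distance to a coding TSS (15.2 to 25.6 kb), and the part of these in the motif shares was not tested. Shared distal regions with a CTCF motif had a median SD of 0.293, those with AP-1 0.498 and those with GATA 0.516.

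The steadiest regions were named by the smallest SD among those at or above the median level. The first was also the highest ranked of all, at chr8:69716391-69717455, between genes and 5.7 kb from the TSS of Zfp869, a zinc finger gene. Its normalized fragments were 750.4, 796 and 766 at E11.5, 789.8, 731 and 748 at E17.5 and 806, 770.1 and 787 in EPDCs, with an SD of 0.05 (log2). All 3 groups overlapped, and its rank percentile was at least 99.87 in every library. The second, at chr5:137032271-137033477 in an exon of Vgf, which encodes a secreted neuropeptide precursor, held 200.4 to 223 normalized fragments across the libraries. The third, at chr8:87656243-87657235, between genes and 92.4 kb from 4933402J07Rik, held 178 to 202. Both contained SP/KLF matches, and their windows held 75.1% and 64.7% G and C.

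The other regions of highest rank were less even. The second, at chr15:85634225-85635272, 51.8 kb from the Wnt ligand gene Wnt7b, held 613 to 657 at E11.5, 661 to 702 at E17.5 and 625 to 705 in EPDCs, and passed the test in neither comparison (adjusted p = 0.102 and 0.205), although its E11.5 and E17.5 values did not overlap. The third, at chr1:100180106-100180424 in an intron of Cntnap5b, held 399 to 503 at E11.5, 292 to 387 at E17.5 and 763 to 913 in EPDCs. It was only 319 bp wide, held none of the 13 motifs, and its groups did not overlap. It fell by 0.38 ± 0.10 (log2, SE) at E17.5 and was 0.91 ± 0.10 higher in EPDCs (limma, adjusted p = 3.14e-03 and 2.37e-07). The fourth, between genes and nearest to the olfactory receptor gene Olfr288, held 625 to 667, 677 to 699 and 513 to 543. It was lower in EPDCs by -0.29 (SE 0.06, adjusted p = 2.04e-04) and its adjusted p was 0.281 between stages, whose values did not overlap. The next, 44.4 kb from Arhgap12, a GTPase-activating protein gene, held 559 to 568, 589 to 637 and 456 to 530, with an adjusted p of 0.162 between stages and 0.036 in EPDCs.

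CTCF-motif regions of highest rank, chosen after their values were seen and with chromosome 18 left out, showed the same evenness in part. The first, at chr11:62756617-62757370 in an intron of the zinc finger gene Zfp286, held 402, 451 and 506 at E11.5, 530.2, 464 and 398 at E17.5 and 472, 426 and 398 in EPDCs. Its groups overlapped, and its differences from E11.5 were 0.03 ± 0.10 and -0.07 ± 0.10. The third, in an intron of Myt1l, held 238 to 296 in all libraries. The second, 6.3 kb from the proteoglycan gene Bcan, held 400.1 to 491 at E11.5, 311 to 384 at E17.5 and 496 to 541 in EPDCs, without overlap, and passed the test in both comparisons (adjusted p = 0.0104 and 0.0184).

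Which of these regions changed between early and late epicardium was asked by comparing E17.5 with E11.5. Of the shared distal regions, 6386, or 23.9%, were stronger at E17.5 and 7467, or 28.0%, were weaker (limma, Benjamini-Hochberg adjusted p under 0.05 over all 44013 regions called in 9 libraries). Of all regions tested, 24.5% were stronger and 23.5% weaker. The TSS-proximal regions had 25.3% stronger and 16.6% weaker. How the share stronger stood to that of all regions depended on the scale: with median centring it was 24.0% of shared distal regions and 37.0% of all regions, and with genome background scaling 24.4% and 37.9%. The share weaker was above that of all regions on each scale, at 31.0% against 23.6% and at 24.3% against 18.1%. The median absolute difference was 0.457 for shared distal regions and 0.240 for TSS-proximal ones, and the median SE was 0.187 and 0.125. A call with a difference over 1 on the log2 scale was reached by 2207 shared distal regions upwards (8.27%) and by 2685 downwards (10.1%), against 3.11% and 2.79% of TSS-proximal regions.

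**Figure D3:**
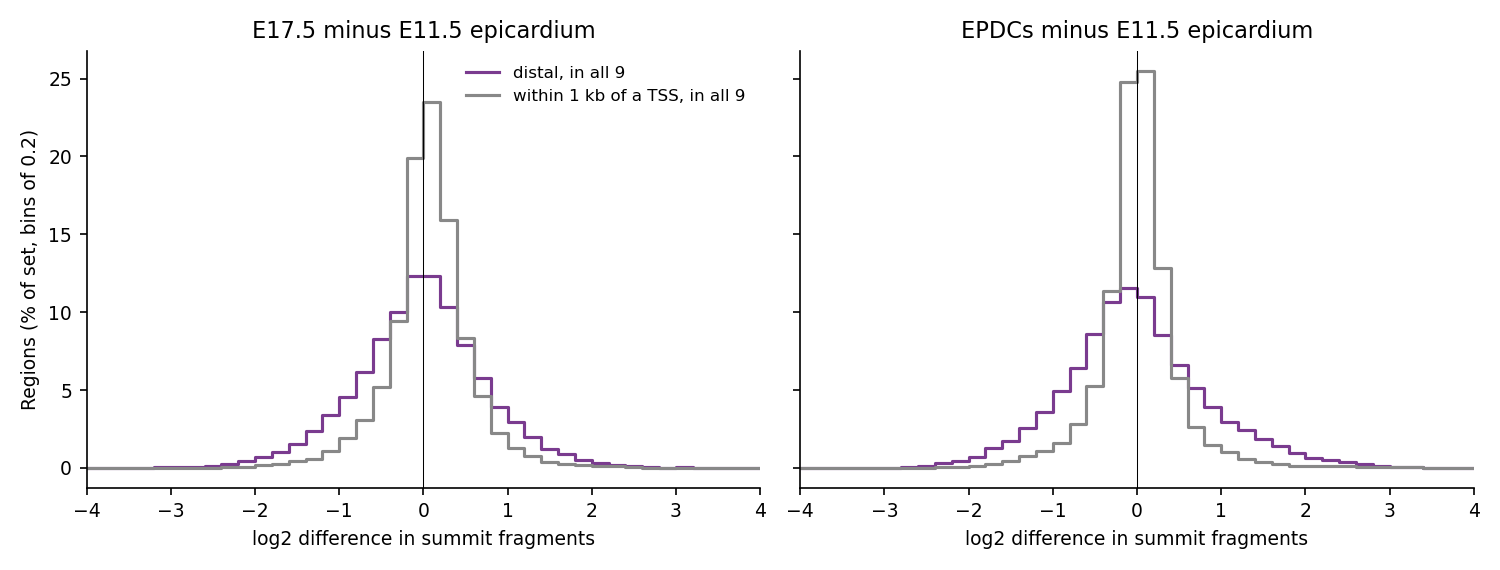
The percentage of regions in bins of 0.2 of the log2 difference in normalized summit fragments, E17.5 minus E11.5 epicardium on the left and EPDCs minus E11.5 epicardium on the right. The curve of the shared distal regions is wider than that of the TSS-proximal regions in both panels, with median absolute differences of 0.457 against 0.240 and of 0.501 against 0.198.

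The greatest rise was at chr11:50669382-50670608 in an intron of Adamts2, which encodes a procollagen-processing protease. It held 20.6, 19.2 and 22.3 normalized fragments at E11.5, 259, 251 and 243 at E17.5 and 19.1, 34.9 and 45.1 in EPDCs. The E17.5 values lay above all others, and the difference was 3.60 ± 0.23 (log2, SE; adjusted p = 3.50e-11). The second, at chr4:145272560-145273541 in an intron of Tnfrsf8 and nearest to the TNF receptor gene Tnfrsf1b, went from 25.8, 17.7 and 13.4 to 177, 202 and 185, with 24.7, 61.2 and 60.1 in EPDCs. Its difference between stages was 3.36 ± 0.30 (adjusted p = 9.81e-08). The third, at chr13:112340096-112341038 in an intron of Ankrd55, went from 16.4, 14.1 and 19 to 167, 136 and 154, with 19.1, 26.9 and 35.8 in EPDCs. The fourth and the fifth lay near Mpp6 (difference 3.21) and Gm10282 (3.20), and the latter was at 36.1 at E11.5, 331 at E17.5 and 387 in EPDCs on average. The strongest summits of the Adamts2, Ankrd55 and Mpp6 regions lay up to 456, 231 and 837 bp apart between libraries, so different summits may be compared there. The distance was 40 to 202 bp in the other regions named for the greatest differences between stages or in EPDCs.

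The greatest fall was at chr5:44601014-44602033 in an intron of Ldb2, which encodes a cofactor of LIM-homeodomain proteins. It held 334, 362 and 376 at E11.5, 33.1, 16.4 and 24.7 at E17.5 and 186, 98.0 and 93.8 in EPDCs, so that the 3 groups were apart (difference -3.91 ± 0.26, adjusted p = 4.81e-09). The second, in an intron of the laminin gene Lama3, went from 287, 296 and 311 to 27.1, 25.6 and 23.4, with 110.2, 66.8 and 42.6 in EPDCs. The third, at chr11:16864834-16865778 in an intron of Egfr, the EGF receptor gene, went from 451, 479 and 434 to 40.9, 40.3 and 44.2, with 189, 119 and 101.1 in EPDCs. Its difference was -3.44 ± 0.17 (adjusted p = 7.71e-13). The Ldb2 and Lama3 regions held a TEAD match within 100 bp of the summit, and the Egfr region held none of the 13 motifs. The fourth and the fifth lay near Wdr7 (-3.28) and Gm10803 (-3.20), and the latter was at 300.4, 32.8 and 347 in the 3 groups on average.

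Motif shares differed between the regions that rose and fell with stage. AP-1 was in 26.3% of the regions stronger at E17.5, 16.5% of those weaker and 18.2% of those not called. The E-box was in 21.3%, 26.9% and 21.1%, TEAD in 8.47%, 11.01% and 9.17% and GATA in 6.70%, 8.40% and 6.23%. CTCF was in 2.43%, 1.35% and 5.55%. The median GC content was 50.8%, 50.8% and 51.2% and the median distance to a coding TSS was 19.3, 29.4 and 20.8 kb. The median rank was 58.9, 65.8 and 60.9. The part of these in the motif shares was not tested. Read by motif, 1680 of 5242 regions with AP-1 were stronger (32.1%) and 1233 weaker (23.5%). Of the 967 with CTCF, 155 were stronger (16.0%) and 10.4% were weaker. Of the 2538 with TEAD, 541 were stronger (21.3%) and 822 weaker (32.4%). Of all shared distal regions, 23.9% were stronger and 28.0% weaker.

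Which regions differed between the epicardium and its mesenchymal derivatives was asked by comparing EPDCs with E11.5 epicardium. This comparison shares the E11.5 libraries with the one above, so both are not independent of each other. Of the shared distal regions, 6972, or 26.1%, were stronger in EPDCs and 7851, or 29.4%, were weaker. Of all regions tested, 22.8% were stronger and 24.5% weaker, and of the TSS-proximal regions 17.6% and 16.8%. The share stronger again stood otherwise with median centring, at 25.5% of shared distal regions and 30.9% of all regions, while the share weaker was 32.2% against 24.2%. The median absolute difference was 0.501, against 0.198 in TSS-proximal regions. With the genome background of each library as the only scale, the median of all regions was -0.20 (log2), a move of -0.18 from the main scale, and stronger regions made 25.3% of the called shared distal regions, against 47.0%. Relative to the median of all regions, that of the shared distal regions was -0.18 on that scale and -0.04 on the main one.

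The greatest rise in EPDCs was at chr3:52897422-52898290, between genes and 96.4 kb from Cog6, a gene of a Golgi tethering complex. It held 16.4, 16.3 and 23.1 at E11.5, 82.1, 56.9 and 75.7 at E17.5, 251 in the E12.5 EPDC library and 398 and 400.5 in those of E13.5, a difference of 4.22 ± 0.20 (adjusted p = 1.62e-13). The second, at chr13:14929966-14930914 near AW209491, went from 14.0, 13.2 and 14.0 to 169, 243 and 246, with 75.7, 55.1 and 45.2 at E17.5. The third, at chr7:34745789-34746994 in an intron of Chst8, a sulfotransferase gene, went from 20.6, 25.2 and 26.8 to 272, 431 and 344, with 98.0, 73.0 and 82.9 at E17.5 (difference 3.84 ± 0.18, adjusted p = 5.42e-14). In all 3 the E17.5 epicardium lay between the E11.5 epicardium and the EPDCs without overlap. The fourth and the fifth, in introns of Klhl29 and of Boc, which encodes a Hedgehog co-receptor, differed by 3.74 and 3.64.

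The greatest fall in EPDCs was at chr12:12518440-12519259, between genes and 256 kb from Fam49a. It held 225, 227 and 249.8 at E11.5, 82.1, 70.9 and 78.8 at E17.5, 48.2 at E12.5 in EPDCs and 15.4 and 25.6 at E13.5 (difference -3.13 ± 0.28, adjusted p = 1.99e-07). The second, at chr2:29235447-29236969 in an intron of Ntng2, which encodes a netrin-G, went from 314, 337 and 329 to 82.4, 23.6 and 32.3, with 85.5, 109.6 and 112 at E17.5. The third, at chr2:107518920-107520206 and 227 kb from the potassium channel gene Kcna4, held 297, 278 and 314 at E11.5, 254, 307 and 287 at E17.5 and 74.6, 22.6 and 28.7 in EPDCs. It was thus at like levels at both epicardial stages (difference -0.07 ± 0.38, adjusted p = 0.898) and lower in EPDCs by -3.02 ± 0.38 (adjusted p = 1.96e-04). The fourth and the fifth, near Pgc and Slc34a2, differed by -2.91 and -2.85. In all 5 the E12.5 EPDC library was the highest of the EPDC libraries.

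**Figure D4:**
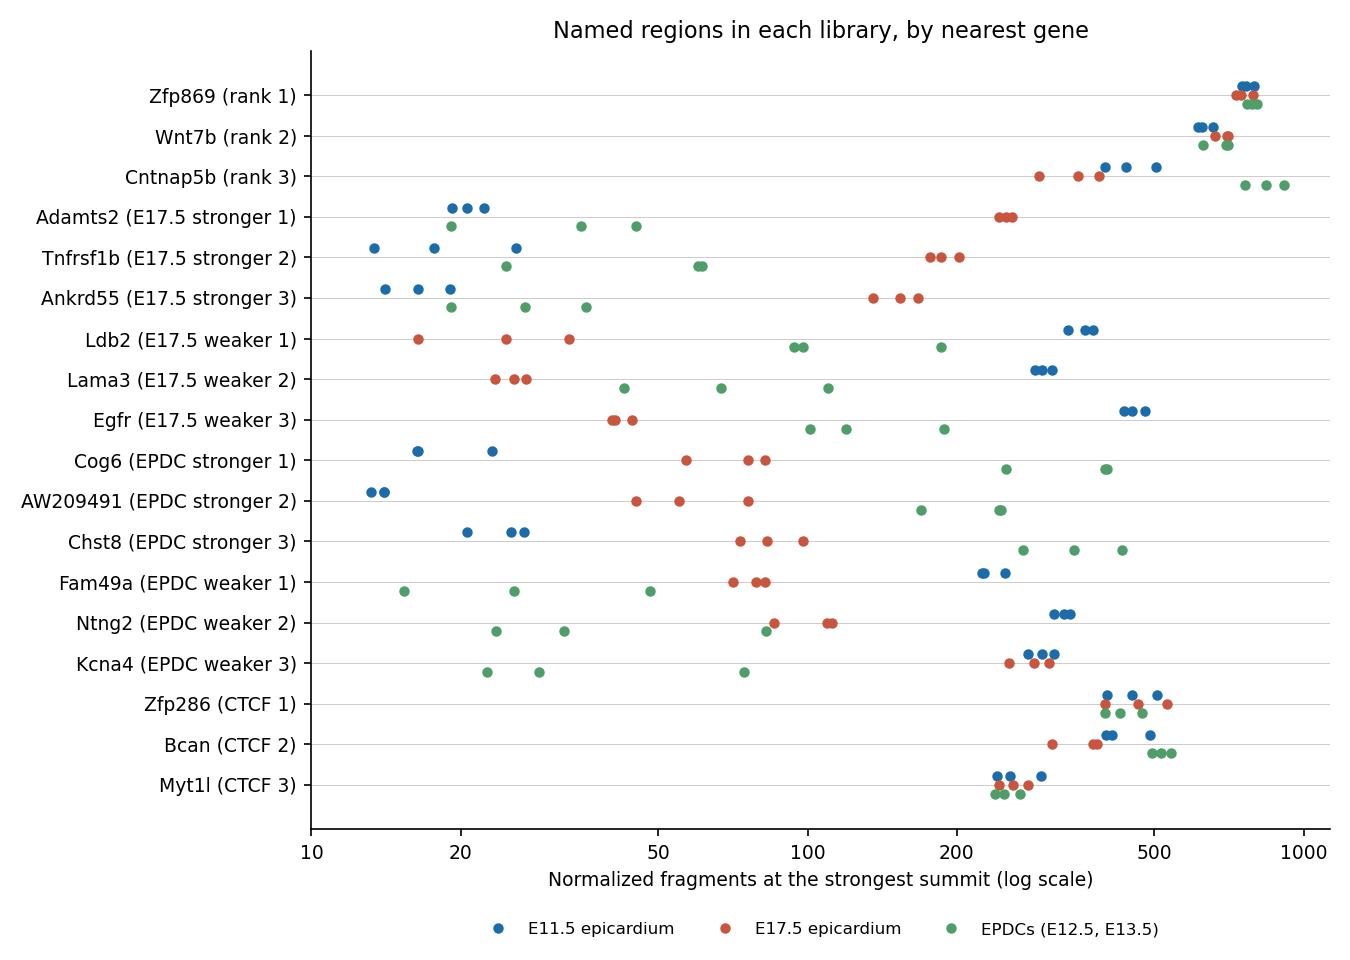
Normalized fragments at the strongest summit (log scale) for the first 3 shared distal regions of each rule, labelled by nearest gene, with 1 point per library and colours for the groups. The E17.5 points of the Adamts2 region (243 to 259) lie above the E11.5 points (19.2 to 22.3), the Zfp869 points lie together at 731 to 806, and the E12.5 EPDC point of the Fam49a region (48.2) lies above those of E13.5 (15.4 and 25.6).

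Most called regions placed the E12.5 library in between. Among the 6972 regions stronger in EPDCs, the median difference from the E11.5 mean was 0.80 at E12.5 and 1.01 at E13.5, and the E12.5 value lay between the E11.5 and E13.5 means in 74.0%. Among the 7851 weaker regions these were -0.69, -0.94 and 76.0%. The E12.5 stage has 1 library, so this order was not tested, and the library itself entered the calls. Without it, 7516 regions were stronger and 8362 weaker.

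Motif shares were read in the same way for EPDCs. The E-box was in 28.6% of regions stronger in EPDCs, 20.4% of those weaker and 20.9% of those not called. AP-1 was in 17.3%, 26.0% and 16.9%, TEAD in 8.35%, 12.4% and 8.28%, and GATA in 6.35%, 8.58% and 6.22%. CTCF was in 0.98%, 2.66% and 5.82%. Of the regions stronger by over 1 on the log2 scale, 30.1% held an E-box and 0.26% a CTCF motif, and of those weaker by over 1, 30.4% held AP-1 and 14.1% TEAD. The median GC content was 50.2%, 51.2% and 51.2% in regions stronger, weaker and not called. Their median rank was 59.6, 65.7 and 60.4, and their median distance to a coding TSS was 27.9, 21.25 and 20.5 kb. The part of these in the motif shares was not tested. Read by motif, 1997 of 6075 regions with an E-box were stronger (32.9%) and 1604 weaker (26.4%), while of 5242 with AP-1, 1204 were stronger (23.0%) and 2041 weaker (38.9%). Of all shared distal regions, 26.1% were stronger and 29.4% weaker.

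Shared distal regions were also grouped by the nearest protein-coding TSS within 100 kb, which names a neighbour and not a target. Of the shared distal regions, 22462 had such a gene, 8512 genes had at least 1, and 233 had 10 or more. Gse1 had 27, of which 24 lay within the gene, over 346 kb of chromosome 8. The counts at each gene stand against 23.9% stronger and 28.0% weaker of all shared distal regions at E17.5 and 26.1% and 29.4% in EPDCs, and nothing particular to a gene is read from them. Of these 27, 2 were stronger and 8 weaker at E17.5, and 8 were stronger and 8 weaker in EPDCs. Bach2, a bZIP transcription factor gene, had 25, with 3 stronger and 7 weaker at E17.5 and 11 stronger and 6 weaker in EPDCs. Smad7, which encodes an inhibitory SMAD, had 22, with 5 and 4 at E17.5 and 6 and 6 in EPDCs. Pdzd2 also had 22, whose differences in EPDCs ran from -1.85 to 3.33. Cux1, a homeobox gene, Nfib, a nuclear factor I gene, and Mcc had 21 each. In Mcc 2 were stronger and 9 weaker at E17.5. Regions near one gene thus moved in both directions, and their mean percentiles ranged from 15.6 to 91.9 near Gse1 and from 37.9 to 96.4 near Bach2. Regions of one locus are not independent of each other.

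Genes of 11 lists were examined in this way, and their counts stand against the same shares of all shared distal regions. Of 20 epicardial and mesothelial identity genes, 19 had 71 shared distal regions. Of these, 18 were stronger and 25 weaker at E17.5 (25.4% and 35.2%), with a median difference of -0.23 against 0.02 for all regions tested. In EPDCs 13 were stronger and 35 weaker (49.3%), with a median of -0.43 against -0.01. The highest ranked lay 32.8 kb from Csf1, the gene of a macrophage growth factor, at chr3:107793235-107794346. Its mean of 545 at E11.5 fell by 0.69 ± 0.08 to 337 at E17.5, and was 420 in EPDCs (-0.38 ± 0.08). The next, at chr2:105133924-105135155 in an intron of Wt1, the epicardial zinc finger gene that drives the label, was at 358, 339 and 402 (adjusted p = 0.419 and 0.075). Of 8 regions near Wt1, 3 were stronger and 3 weaker at E17.5, and 1 was stronger and 5 weaker in EPDCs. The third, 19.6 kb from the keratin gene Krt8, was at 268, 209 and 229, and passed the test between stages (adjusted p = 0.0101). Other genes of the list differed from Wt1 in EPDCs. The counts stronger and weaker were 2 and 3 of 8 near Csf1 and 2 and 2 of 7 near Bnc2. They were 1 and 2 of 6 near Tbx18 and 2 and 0 of 6 near Tcf21.

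Of 20 cardiac mesenchyme and matrix genes, 18 had 84 shared distal regions. At E17.5 22 were stronger and 24 weaker (26.2% and 28.6%), and in EPDCs 29 were stronger (34.5%) and 18 weaker (21.4%), with a median of 0.24. Of the 3 highest ranked regions of this list, the first and the third were called in neither comparison and the second was called in both. The first, 4.7 kb from Sparc, at chr11:55427924-55428833, was at 495, 484 and 473 in the 3 groups, and the third, 6.0 kb from Col1a1, a fibrillar collagen gene, at chr11:94928636-94930209, was at 339.6, 331 and 348. The adjusted p of both was 0.466 or more in each comparison. The second, 88.0 kb from Zeb1, a repressor active in epithelial-to-mesenchymal transition, was at 347, 278 and 269 and was lower in both comparisons (-0.32 and -0.37, adjusted p = 0.0122 and 4.52e-03). Near Col1a2, 6 of 9 regions were stronger in EPDCs and 2 weaker. These counts were 2 and 2 of 9 near Col1a1, 3 and 2 of 8 near Zeb1 and 1 and 2 of 8 near Zeb2. Near Cdh2 they were 2 and 1 of 7, and near Sparc 3 and 1 of 7.

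**Figure D5:**
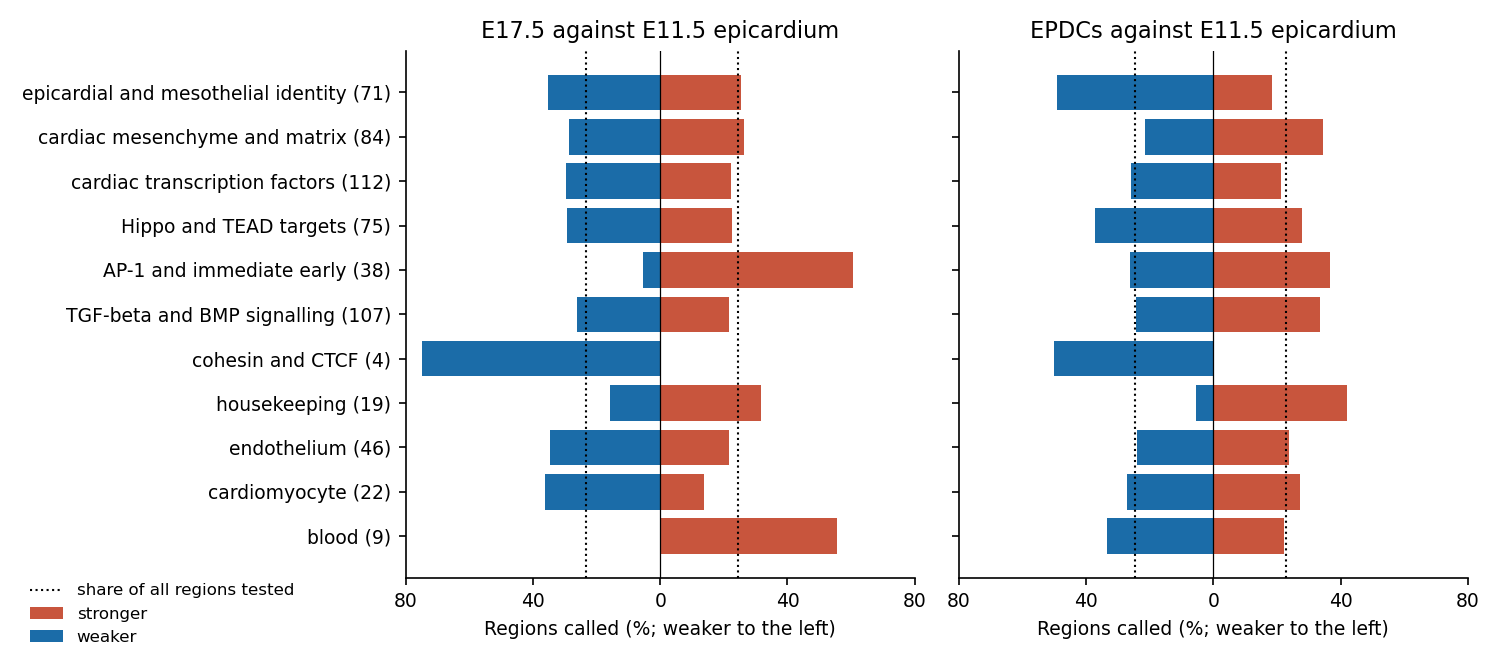
The percentage of shared distal regions called stronger (red, to the right) and weaker (blue, to the left) for the regions nearest to the genes of 11 lists, with their number in brackets, at E17.5 against E11.5 on the left and in EPDCs against E11.5 on the right. Dotted lines mark the share of all regions tested (24.5% and 23.5%, 22.8% and 24.5%), past which lie, among others, the AP-1 and immediate early (60.5% stronger), blood (55.6% stronger) and cohesin and CTCF (3 of 4 weaker) lists at E17.5 and the housekeeping (42.1% stronger), cohesin and CTCF (2 of 4 weaker) and epicardial (49.3% weaker) lists in EPDCs.

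The 13 AP-1 and immediate early genes, which encode the FOS and JUN proteins and other factors of rapid response, had 38 shared distal regions near 11 of them. Of these, 23 were stronger at E17.5 (60.5%) and 2 weaker, with a median difference of 0.34. In EPDCs 14 were stronger and 10 weaker (36.8% and 26.3%). Of 10 regions near Fos, 6 were stronger and 1 weaker at E17.5, and of 6 near Klf4, 4 were stronger and 0 weaker in each comparison. The highest ranked, 17.8 kb from Fos at chr12:85454888-85456043, was at 575, 581 and 613 (adjusted p = 0.862 and 0.251). That 25.8 kb from Egr1 rose from 392 to 467 at E17.5 and was 461 in EPDCs (0.25 ± 0.07 and 0.23 ± 0.07, adjusted p = 5.53e-03 and 9.45e-03).

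Of 75 shared distal regions near Hippo and TEAD target genes, 17 were stronger and 22 weaker at E17.5 (22.7% and 29.3%), near the shares of all shared distal regions, and 21 were stronger and 28 weaker in EPDCs (28.0% and 37.3%). Tead1, a TEAD factor gene, had 15 of them. Of these, 2 were stronger and 8 weaker at E17.5, and 0 stronger and 8 weaker in EPDCs. The highest ranked of the list lay at chr7:112655992-112656956, 22.4 kb from Tead1 and in an intron of a gene that does not code for protein, at 756, 607 and 491 in the 3 groups. It was lower by -0.32 ± 0.09 at E17.5 and -0.62 ± 0.09 in EPDCs.

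Genes of TGF-beta and BMP signalling had 107 shared distal regions, with 23 stronger and 28 weaker at E17.5 (21.5% and 26.2%) and 36 stronger and 26 weaker in EPDCs (33.6% and 24.3%). Smad6, the inhibitory SMAD of the BMP branch, had 13, of which 9 were stronger and 0 weaker in EPDCs, while 1 was stronger and 1 weaker at E17.5. Its highest ranked region, at chr9:64044748-64045786, was at 343, 191 and 485, lower at E17.5 by -0.84 ± 0.10 and higher in EPDCs by 0.50 ± 0.10. The region 25.9 kb from Id3, a BMP target gene, was at 232, 331 and 315 and rose in both comparisons. That 23.9 kb from Smad7 was at 309.5, 307 and 262 (adjusted p = 0.923 and 0.0375). Of 112 regions near cardiac transcription factor genes, 25 were stronger and 33 weaker at E17.5 (22.3% and 29.5%), and 24 and 29 in EPDCs (21.4% and 25.9%), all near the shares of all shared distal regions. Among them, the region 87.7 kb from Nr2f2, a nuclear receptor gene, at chr7:70266841-70267534, held AP-1 and TEAD matches and was at 386, 414 and 166, lower in EPDCs by -1.22 ± 0.13 (adjusted p = 2.57e-07). The region 85.7 kb from Gata6 went the other way in EPDCs (0.52 ± 0.10), and that 24.5 kb from Gata4 was lower at E17.5 (-0.45 ± 0.11).

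Lists of other cell types and of broadly expressed genes had shared distal regions too. Endothelial genes had 46, with 10 stronger and 16 weaker at E17.5 (21.7% and 34.8%) and 11 and 11 in EPDCs (23.9% each), although the promoters of Pecam1, Cdh5 and Tie1 were uncalled. The region in an intron of Tek, an angiopoietin receptor gene, was at 403, 241 and 430, lower at E17.5 by -0.74 ± 0.09 (adjusted p = 2.71e-07). Those near Emcn, the endomucin gene, were at 331, 278 and 384 and at 182, 78.3 and 274, and both were lower at E17.5 (adjusted p = 3.16e-02 and 1.44e-07), the latter also higher in EPDCs (adjusted p = 1.27e-03). Cardiomyocyte genes had 22, with 3 stronger and 8 weaker at E17.5 (13.6% and 36.4%) and 6 and 6 in EPDCs (27.3% each), and their leading regions near Myl3 were at 311, 318 and 378 and at 332, 372 and 335. The next, 34.7 kb from Ryr2, the gene of a calcium release channel, was at 209, 128 and 143 and was lower in both comparisons (-0.71 and -0.55, adjusted p = 3.56e-04 and 3.53e-03). Of 7 regions near Ryr2, 1 was stronger and 5 weaker at E17.5, and 2 were stronger and 2 weaker in EPDCs. Blood genes had 9, with 5 stronger and 0 weaker at E17.5 (55.6% stronger) and 2 and 3 in EPDCs (22.2% and 33.3%). Housekeeping genes had 19, with 6 stronger and 3 weaker at E17.5 (31.6% and 15.8%) and 8 and 1 in EPDCs (42.1% and 5.3%). Genes of cohesin and CTCF had 4, of which 3 were weaker at E17.5 and 2 in EPDCs. One of these, 13.7 kb from Ctcf itself, at chr8:105622224-105622901 in an intron of Agrp, held a CTCF match and was lower at E17.5 (-0.56 ± 0.12, adjusted p = 4.43e-04).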

How the data were processed

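ATAC-seq peak lists of 9 libraries from 10 samples were used, grouped by the sample titles. According to the methods, the authors aligned reads to mm10 with an nf-core pipeline, removed duplicate, multimapped, mitochondrial and blacklisted reads, and used MACS2 2.2.9.1 with paired fragments as input and 0.01 as the q-value limit for peaks. The deposited lists give, per summit, a fold enrichment over local background (a ratio), a −log10 p-value and a −log10 q-value computed by the authors' peak caller, without normalization between libraries. From fold enrichment and −log10 p, whole fragments at each interval's strongest summit were solved; at least 99.94% of intervals of a list were solved within a relative error of 1e-04. Depth was read as the most frequent background.

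Fragments of the 44013 regions called in all libraries were quantile normalized on the log2 scale and tested with limma 3.58.1 in R 4.3.3 (trend and robust, 3 groups, all 9 libraries), with Benjamini-Hochberg adjustment over all regions. The biological replicates were separate pools of hearts. TSS and genes came from GENCODE M21, and sequence from RefSeq GRCm38.p6. Motif windows reached 100 bp to each side of the median summit. The procedures were tested on simulated data.

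Named regions were the 5 of highest mean percentile, the 5 greatest differences per comparison and direction among called regions whose groups do not overlap (the first 3 with all values), the 3 of smallest SD, up to 3 per gene list and the genes with most regions. The regions, gene lists and motifs were chosen with earlier results of these data known, and some list genes were named by the study on these samples. Alternatives were other scalings, measures, filters, call rules and each library left out.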

Additional observations from a re-analysis of the deposited data

Results flagged for a closer look

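The EPDC lists held peak summits outside chromosomes 1 to 19, X and Y, on chromosome M and other contigs, while the 6 epicardial lists held 0. There were 268 in the E12.5 EPDC list, 263 in that of E13.5 EPDC sample 1 and 252 in that of E13.5 EPDC sample 2. Of these, 47, 45 and 25 lay on chromosome M. They entered no comparison here. The lists of both sorts therefore differ in how contigs were kept, and the part of any such difference in the EPDC comparison was not tested.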

How the results depend on the processing

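Of 74 values under alternatives, 60 stayed within 1.5 times the main value and 14 moved further. This rule compares sizes only and cannot show a change of direction. With genome background scaling at E17.5, 6501 shared distal regions were stronger and 6482 weaker, so the excess of weaker regions on the main scale was gone. The number of shared distal regions was 21702 to 28838 under the other rules of call and distance and 26796 to 28480 with any 1 library left out. It was 11935 when an interval had to cover 50% of the region. A CTCF motif with 1 mismatch was in 9.91% of shared distal regions and 6.69% of all distal regions. For regions stronger and weaker at E17.5, log2 fold enrichment gave 4045 and 4944. Testing only the 22007 regions at or above the median level of all 44013 gave 1935 and 2970 among 8746 shared distal regions. Testing only the 24636 regions with all strongest summits within 100 bp gave 3380 and 3978 among 14647 shared distal regions. The latter alternative was chosen after seeing the data. In EPDCs these gave 4497 (stronger, log2 fold enrichment), 2275 and 2841, and 3629 and 4108, and genome background scaling gave 3776 stronger and 11161 weaker. The median of all regions at E17.5 moved by 0.12 with median centring and by 0.20 with background scaling. Leaving out 1 library gave 5419 to 5748 stronger and 6534 to 6904 weaker at E17.5, and 5963 to 7516 and 6922 to 8362 in EPDCs.

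With the replicate number as a block (replicate block, 6 epicardial libraries), 6992 regions were stronger and 7993 weaker at E17.5, against 7062 and 8037 in these libraries without it. Deviations of same-numbered libraries had correlations of -0.049, 0.033 and -0.084, and those of other pairs reached 0.099. Deviations from a mean of 3 libraries cannot show whether same-numbered samples share more than a number. For EPDCs, where the E12.5 library and E13.5 sample 1 both carry number 1, the replicate block, added after seeing the data, gave 5725 stronger and 5792 weaker, against 6762 and 7440 in the same 6 libraries without it. The correlations of same-numbered libraries were -0.063, -0.010 and -0.005, and those of other pairs reached 0.101. Whether same-numbered samples share more than a number is again not decided by them. Depth limits weak summits: regions uncalled in a list have no value here, and an uncalled region is not shown to be closed.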
